A study of Saccharomyces cerevisiae with 6 samples.

Results

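The ADE genes of budding yeast (Saccharomyces cerevisiae) encode the enzymes that build purine nucleotides from scratch. The 10 genes described here, ADE1, ADE2, ADE4, ADE5,7, ADE6, ADE8, ADE12, ADE13, ADE16 and ADE17, were chosen by symbol among 4909 listed genes, and all 10 were found. They were put together with results of these data in view, since ADE17 was already known to be among the genes furthest below the wild type in the Dcp2 degron strain. RNA levels of these 10 genes in the Dcp2 degron strain against the wild type, and in one degron against the other, are therefore given as a description, without a test.

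Native polyadenylated RNA was sequenced on nanopores, which gives for each gene a read count and a median poly(A) tail length in nucleotides (nt), in 3 groups of 2 libraries. The wild type was BY4741 (leu2Δ0, his3Δ1, ura3Δ0, met15Δ0, mating type a). Both degron strains, LMA5574 for Dcp2 and LMA5601 for Ccr4/Pop2, are labelled as BY4741 derivatives, and both carry TAO3 E1493Q, an inserted A at -308 of RME1, and a TRP1-marked construct at trp1-1 whose label names prURA3, Z3EVtf, tURA3 and a Z3EV-TIR unit, where TIR is the auxin receptor through which an AID degron acts. Strain LMA5574 has DCP2, the catalytic subunit of the decapping enzyme, fused to a part labelled polyG, a Flag tag and an AID degron, with a kanMX marker. Strain LMA5601 has AID degrons on the deadenylases CCR4, also Flag-tagged, and POP2 (labelled CAF1, with KanMX6). All cultures, wild type included, grew at 30 °C in YPD up to OD600 of 0.4 and were given IAA, an auxin, at 100 µM with β-estradiol at 1 µM for 1 h. The wild type is not labelled with the alleles and construct that both degron strains share, so each contrast compares strains, and the depletion is only 1 of their differences. The degron strains are called the Dcp2 strain and the Ccr4/Pop2 strain below. The labels do not say that the libraries of a group came from separate cultures, so p-values measure only the spread between these libraries, which may be technical.

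De novo purine synthesis starts from phosphoribosyl pyrophosphate and assembles the purine ring on the ribose, ending at IMP, which is then turned into AMP or GMP. In yeast the pathway is controlled at transcription: the activators Bas1 and Pho2 switch the ADE genes on when adenine is scarce, and the core bases TGACTC are shared by Bas1 sites and by sites of Gcn4, the activator of the general amino acid response. Loss of ADE1 or ADE2 makes colonies red, because an intermediate of the pathway builds up.

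Sequences were read from the RefSeq R64 reference, the same assembly as the sacCer3 build named in the submitters' processing notes. The 300 bases before the start codon held TGACTC, or GAGTCA for the opposite strand, in 8 of the 10 genes. Of 4907 listed genes with such a window, 392 held it, which is 7.99%. ADE4 and ADE16 were the genes without it. The windows of 4 genes from 300 to 101 bases before the start codon are shown, ADE17 and ADE16 because they encode the same enzyme, and ADE8 and ADE4 because their values below depart from those of the other genes. Capitals mark the motif.
ADE17, chrXIII:509381-509580, minus strand: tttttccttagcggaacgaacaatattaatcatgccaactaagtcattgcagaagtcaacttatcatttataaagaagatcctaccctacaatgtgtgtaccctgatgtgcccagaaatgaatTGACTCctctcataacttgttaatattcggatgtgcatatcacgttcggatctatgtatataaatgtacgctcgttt
ADE16, chrXII:201416-201615, minus strand: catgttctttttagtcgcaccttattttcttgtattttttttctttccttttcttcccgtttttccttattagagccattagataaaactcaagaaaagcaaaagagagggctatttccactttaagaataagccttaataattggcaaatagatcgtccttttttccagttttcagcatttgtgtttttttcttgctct
ADE8, chrIV:1288960-1289159, minus strand: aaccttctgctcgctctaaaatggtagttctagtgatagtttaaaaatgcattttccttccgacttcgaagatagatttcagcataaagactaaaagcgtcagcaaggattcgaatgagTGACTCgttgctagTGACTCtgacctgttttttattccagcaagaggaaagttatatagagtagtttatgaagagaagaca
ADE4, chrXIII:867192-867391, minus strand: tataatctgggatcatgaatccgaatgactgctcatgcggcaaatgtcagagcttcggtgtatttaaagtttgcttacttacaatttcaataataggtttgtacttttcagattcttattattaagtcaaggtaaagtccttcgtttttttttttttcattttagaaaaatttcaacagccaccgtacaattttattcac
The motif of ADE17 lay 177 bases before the start codon, and ADE8 held it 181 and 167 bases before. ADE5,7 held it at 217 and 184 bases and ADE2 at 196 and 153. ADE1 held a pair at 226 and 217 bases, the first on the opposite strand. ADE6 had 1 at 276 bases, and ADE13 and ADE12 had 1 each on the opposite strand, at 216 and 222 bases. A match of these letters is a description of the window and not a binding site, and the absence of a match in ADE4 and ADE16 says only that the letters are not in these windows.

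ADE16 and ADE17 encode the same enzyme and are similar in sequence, so reads of one could in principle be counted for the other. Their coding sequences of 1776 and 1779 bases were identical at 74.8% of 1776 aligned positions, with no identical run longer than 19 bases. Direct RNA reads start at the 3′ end, and the last 90 coding bases of the genes, stop codon included, differed at 17 positions, which are in capitals here.
ADE16, chrXII:199540-199629, minus strand: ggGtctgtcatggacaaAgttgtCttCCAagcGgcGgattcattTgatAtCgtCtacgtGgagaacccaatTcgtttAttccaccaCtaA
ADE17, chrXIII:507502-507591, minus strand: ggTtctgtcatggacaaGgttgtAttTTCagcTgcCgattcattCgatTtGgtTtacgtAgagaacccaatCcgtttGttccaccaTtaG
The rule by which the authors assigned reads to genes is not given in the sources used here.

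Depth and libraries were examined before the levels. Total counts over the listed genes ran from 1067250 to 8450296 per library, and the 10 ADE genes together took from 0.0962% to 0.195% of them, with the lowest single count being 44 reads, for ADE17 in replicate 2 of the Dcp2 strain. Every count in replicate 1 of the Ccr4/Pop2 strain was a multiple of 4, so its counts may not be numbers of separate reads and its depth is uncertain. Genes with under 20 reads numbered 0 in replicate 1 of each degron strain and from 178 to 788 in the others. The lowest count was 20 in both of the former and from 1 to 6 in the others, so genes with fewer reads there may be missing from the list. Shares and medians over all genes are over the listed genes only. HIS3, of which the his3Δ1 allele removes only an internal stretch, had 74 to 716 reads, while LEU2, URA3 and MET15 were not analysed here. DCP2 had 37 and 45 reads in the Dcp2 strain against 99 and 68 in the wild type, and POP2 had 408 and 45 in the Ccr4/Pop2 strain against 137 and 62, although a degron acts on the protein. These reads are not scaled to depth, so no rise or fall is read from them. Library totals were 8450296 and 1825046 in the Ccr4/Pop2 strain, 1067250 and 1967303 in the Dcp2 strain and 1857632 and 1751159 in the wild type. The 408 reads come from the library whose counts were all multiples of 4. CCR4 was not analysed here.

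Levels are given as CPM, the read count scaled to a common library size, after TMM scaling, which sets the libraries to a common centre over genes. With TMM scaling the summed level of the 10 genes was 1868 and 1831 CPM in wild-type libraries, 1072 and 1115 in the Dcp2 strain, and 1388 and 1204 in the Ccr4/Pop2 strain. Both degrons lay below the wild type without overlap. Scaled by total counts instead, the sums were 1954 and 1299, 1627 and 1121, and 1533 and 962 CPM, and the 3 groups overlapped. The choice of scaling matters because it moved the median of all genes by a large amount: from -0.016 to 0.51 on the log2 scale for the Dcp2 strain against the wild type, from -0.0066 to 0.12 for the Ccr4/Pop2 strain against the wild type, and from 0.085 to -0.31 between the degrons. In bulk RNA a smaller share of cells and less RNA per cell cannot be told apart.

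**Figure D1:**
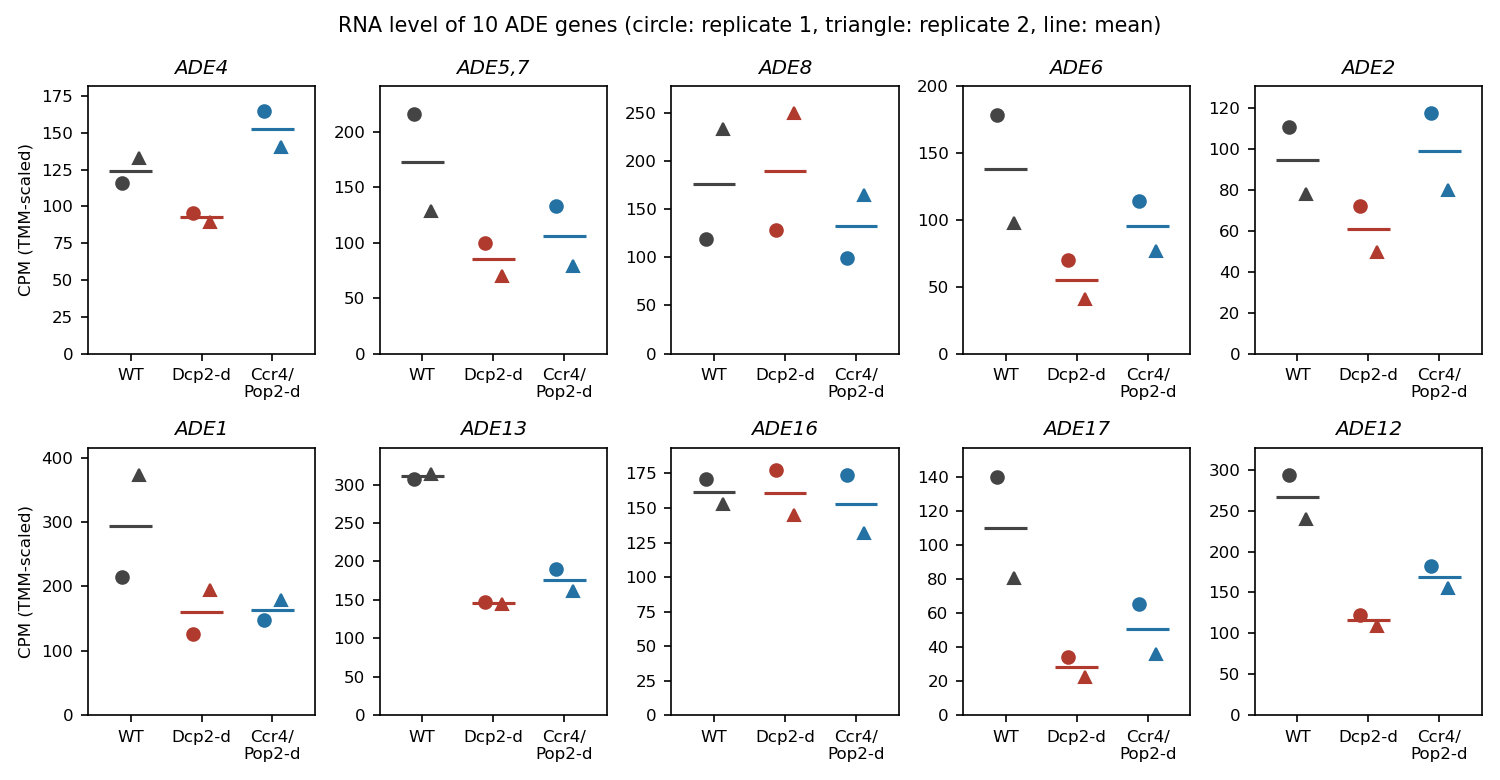
Level of each ADE gene in each library, in CPM after TMM scaling, each panel with its own axis from 0, for the wild type (WT), the Dcp2 strain (Dcp2-d) and the Ccr4/Pop2 strain (Ccr4/Pop2-d); circles are replicate 1, triangles replicate 2 and lines group means. Both Dcp2 points lie below both wild-type points for 8 of the 10 genes, ADE8 and ADE16 being the exceptions.

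In the Dcp2 strain, most ADE transcripts stood below the wild type, with ADE17 the furthest below, while ADE8 and ADE16 did not. Both Dcp2 libraries lay below both wild-type libraries for 8 of the 10 genes, a pattern that 20.4% of all genes showed. Scaled by total counts, only ADE1 and ADE17 lay below in both libraries, where 2.08% of all genes did, ADE8 lay above, where 40.2% did, and the other 7 overlapped. The members' log2 differences ran from -1.98 for ADE17 to 0.10 for ADE8, with a median of -0.95, beside a median of -0.02 over all genes. With total-count scaling these medians were -0.43 and 0.51. Statements below on which libraries stood higher or lower refer to levels after TMM scaling.

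At the entry to the pathway, ADE4 (glutamine phosphoribosyl pyrophosphate amidotransferase, YMR300C) catalyses the committed step. Its level was 116 and 133 CPM in wild-type libraries, 95.7 and 89.5 in the Dcp2 strain and 165 and 141 in the Ccr4/Pop2 strain. ADE4 was the one member below the wild type in the Dcp2 strain and above it in the Ccr4/Pop2 strain in every library, an order that 2.34% of all genes had, with log2 differences of -0.42 and 0.30. With total-count scaling the first of these was 0.12, so its sign depended on the scaling.

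The next enzymes build the imidazole ring. ADE5,7 (YGL234W), which encodes a single protein with glycinamide ribotide synthetase and aminoimidazole ribotide synthetase activities, measured 216 and 129 CPM in wild-type libraries, 100.0 and 70.3 in the Dcp2 strain and 133 and 78.8 in the Ccr4/Pop2 strain. ADE6 (formylglycinamidine ribotide synthetase, YGR061C) measured 179 and 97.4 CPM in wild-type libraries, 69.8 and 40.4 in the Dcp2 strain and 114 and 76.8 in the Ccr4/Pop2 strain. Replicate 2 was the lower library of each pair for both genes, and within each replicate number both degrons lay below the wild type. The log2 differences in the Dcp2 strain were -1.02 for ADE5,7 and -1.33 for ADE6.
ADE8 (glycinamide ribotide transformylase, YDR408C) did not follow them. It measured 119 and 233 CPM in wild-type libraries, 128 and 249.7 in the Dcp2 strain and 99.4 and 165 in the Ccr4/Pop2 strain. In each group replicate 2 was the higher library, and the gap between replicates exceeded any gap between group means. Its log2 difference in the Dcp2 strain was 0.10.

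ADE2 (aminoimidazole ribotide carboxylase, YOR128C) and ADE1 (SAICAR synthetase, YAR015W) follow, the pair whose loss gives red colonies. ADE2 measured 111 and 78.1 CPM in wild-type libraries, 72.2 and 49.5 in the Dcp2 strain and 118 and 80.2 in the Ccr4/Pop2 strain, so that both Dcp2 libraries lay below both wild-type libraries while the Ccr4/Pop2 libraries overlapped them. ADE1 measured 215 and 373 CPM in wild-type libraries, 125 and 195 in the Dcp2 strain and 147 and 178 in the Ccr4/Pop2 strain, with both degrons below both wild-type libraries. Log2 differences in the Dcp2 strain were -0.64 for ADE2 and -0.88 for ADE1.
ADE13 (adenylosuccinate lyase, YLR359W) acts both in the main pathway and in the branch to AMP, and ADE12 (adenylosuccinate synthase, YNL220W) acts in that branch alone. ADE13 measured 307 and 314 CPM in wild-type libraries, 147 and 144 in the Dcp2 strain and 191 and 162 in the Ccr4/Pop2 strain. For ADE12 the levels were 294 and 239.9 CPM in wild-type libraries, 122 and 109 in the Dcp2 strain and 182 and 156 in the Ccr4/Pop2 strain. The groups did not overlap for either gene, and the wild type was highest, the Dcp2 strain lowest and the Ccr4/Pop2 strain between them in every library. Log2 differences in the Dcp2 strain were -1.09 for ADE13 and -1.21 for ADE12.

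The pathway ends with ADE16 (YLR028C) and ADE17 (YMR120C), both of which encode AICAR transformylase and IMP cyclohydrolase, the enzyme that closes the purine ring to give IMP. ADE16 measured 171 and 153 CPM in wild-type libraries, 177 and 145 in the Dcp2 strain and 174 and 132 in the Ccr4/Pop2 strain, and all 3 groups overlapped. ADE17 measured 139.9 and 80.5 CPM in wild-type libraries, 34.0 and 22.2 in the Dcp2 strain and 65.1 and 35.6 in the Ccr4/Pop2 strain, with both Dcp2 libraries below the lowest of the other libraries. Log2 differences in the Dcp2 strain were -0.0076 for ADE16 and -1.98 for ADE17, the latter a level 3.94-fold lower. With total-count scaling these differences were 0.53 and -1.48.
Since the genes have nearly the same coding length, the split of reads between them was also read within each library, where it does not depend on scaling. In wild-type replicate 1 ADE17 had 272 reads and ADE16 had 332, so that ADE17 took 45.0% of the pair (95% Wilson interval 41.1 to 49.0), and 34.5% (29.2 to 40.1) in replicate 2. In the Dcp2 strain it took 16.1% (12.6 to 20.3) and 13.3% (10.1 to 17.4). In the Ccr4/Pop2 strain it took 27.2% (25.4 to 29.1, or 23.7 to 31.1 if the counts are divided by 4) and 21.3% (16.6 to 26.9). The groups did not overlap: the mean share was 39.8% ± 7.46 in the wild type, 24.3% ± 4.19 in the Ccr4/Pop2 strain and 14.7% ± 1.97 in the Dcp2 strain (SD, n = 2 each). The intervals cover counting error only. A share shows that the genes differed unequally between groups and not that ADE16 was constant.

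**Figure D2:**
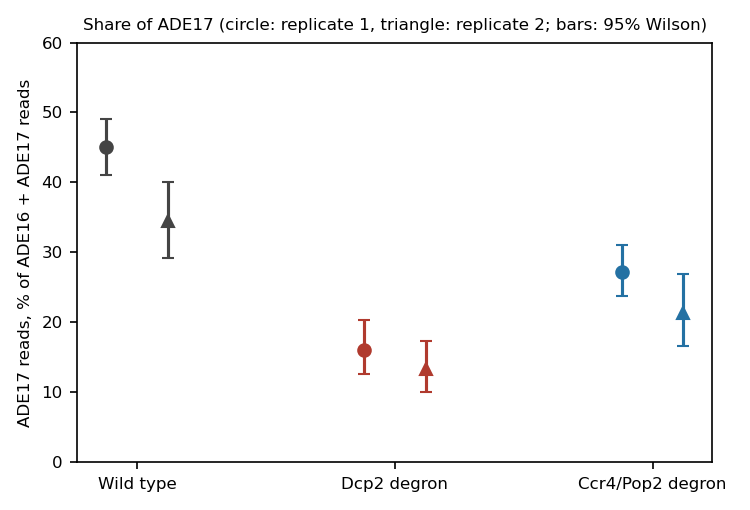
Share of ADE17 in the reads of ADE16 and ADE17 together, in percent, for each library (circle, replicate 1; triangle, replicate 2), with 95% Wilson intervals as bars; for replicate 1 of the Ccr4/Pop2 strain the bar uses counts divided by 4. Wild-type libraries lie at 45.0% and 34.5%, the Ccr4/Pop2 strain at 27.2% and 21.3%, and the Dcp2 strain at 16.1% and 13.3%.

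The Ccr4/Pop2 strain against the wild type is the level contrast that was not named in choosing the genes, although it shares the wild-type libraries with the Dcp2 contrast. Without the replicate number in the model, edgeR's quasi-likelihood test called 0 of the 10 genes at an adjusted p-value under 0.05, and 4 of 4909 genes, or 0.0815%, in all. At an unadjusted p-value under 0.05 it found 392 genes, 2 of them members, and DESeq2 called 33 genes (0.672%), of which 0 were members. Libraries with the same replicate number deviated together, so the number was also used as a block. With it, edgeR called 7 of the 10 genes lower and 0 higher, beside 12.8% lower and 14.2% higher of all genes. The members' log2 differences had a median of -0.59 without the block and -0.60 with it, beside -0.01 over all genes either way.

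ADE17 showed the largest difference, with a log2 change of -1.12 (SE 0.158; edgeR with the block, adjusted p 5.8e-05; without the block 0.617). ADE13 changed by -0.80 (SE 0.126; adjusted p 0.000161 in edgeR with the block and 0.583 without), and ADE1 by -0.78 (SE 0.138; 0.000453 and 0.691). These 3 genes were lower in both libraries of the degron than in either wild-type library, as was ADE12, which changed by -0.66 (SE 0.126; edgeR adjusted p 0.000883 with the block and 0.676 without). Both libraries below both wild-type libraries was a pattern of 15.6% of all genes. Scaled by total counts, ADE13 and ADE1 kept it, beside 8.19% of all genes, while ADE17 and ADE12 overlapped the wild type.
The other calls with the block were for genes whose libraries overlapped between groups and which were lower within each replicate number. ADE5,7 changed by -0.70 (SE 0.140; edgeR adjusted p 0.00130 with the block and 0.780 without), ADE6 by -0.54 (SE 0.146; 0.0111 and 0.884) and ADE8 by -0.37 (SE 0.135; 0.0481 and 0.949). The call for ADE8 was lost when total-count scaling was used with the block.
The last 3 genes did not pass. ADE4 stood above both wild-type libraries in both degron libraries with TMM scaling, which 16.5% of all genes did. With total-count scaling it overlapped them, and 0 of the 10 genes lay above, beside 17.8% of all genes. Its TMM-scaled levels gave a log2 difference of 0.32 (SE 0.145; edgeR adjusted p 0.112 with the block and 0.911 without). It passed as higher only with total-count scaling and the block, at 0.44. ADE2 differed by 0.07 (SE 0.146; edgeR adjusted p 0.771 with the block) and ADE16 by -0.08 (SE 0.135; 0.717), and total-count scaling turned the sign of ADE16 to 0.054. With the block and total counts as the scale, the members counted 6 lower and 1 higher, beside 8.82% and 20.2% of all genes.

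**Figure D3:**
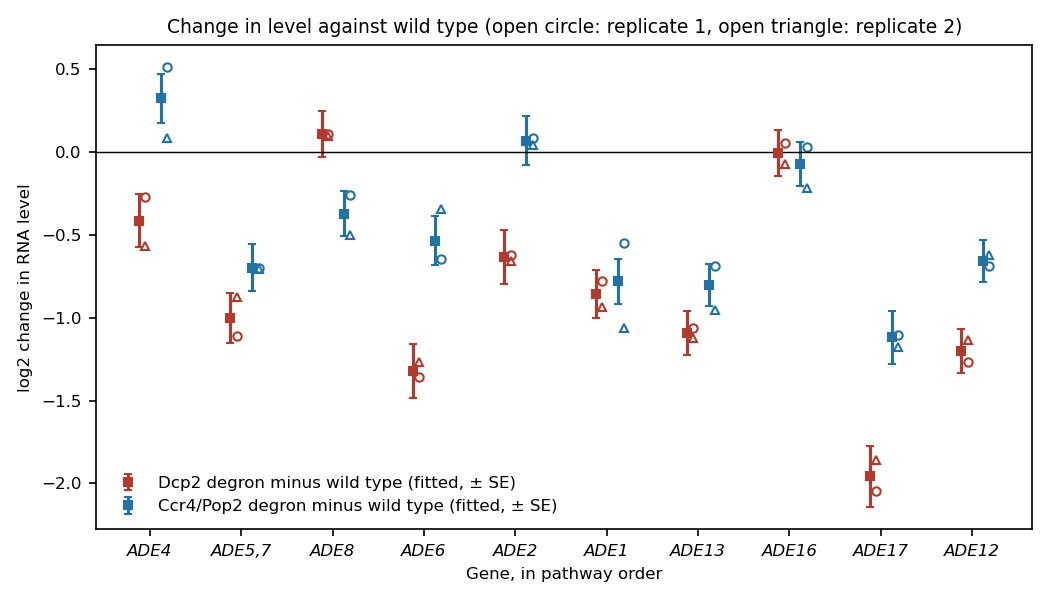
Log2 difference in level of each ADE gene, in pathway order, between each degron strain and the wild type; squares with bars are the estimates of edgeR with the replicate block ± SE, and open circles and triangles are the differences within replicates 1 and 2. In the Ccr4/Pop2 strain the estimates run from -1.12 for ADE17 to 0.32 for ADE4, and in the Dcp2 strain from -1.96 for ADE17 to 0.10 for ADE8; both contrasts share the wild-type libraries.

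Set against each other after TMM scaling, the degrons differed most for ADE17, at a log2 of 0.87 (Ccr4/Pop2 minus Dcp2), and least for ADE1, at 0.02, and ADE16, at -0.07. ADE6 (0.80), ADE4 (0.72), ADE2 (0.71) and ADE12 (0.55) stood higher in the Ccr4/Pop2 strain, while ADE8 stood lower at -0.52. With total-count scaling ADE8 differed most, at -0.89, and ADE17 measured 0.48. The median over the members was 0.43, beside 0.09 over all genes, and 0.038 beside -0.31 with total-count scaling. In both Ccr4/Pop2 libraries 6 of the 10 genes exceeded both Dcp2 libraries with TMM scaling, as 23.4% of all genes did. With total-count scaling 0 did so, beside 4.54% of all genes, and ADE8 and ADE1 lay below both Dcp2 libraries, as 32.6% of all genes did. The Dcp2 libraries had been in view when the genes were chosen, so nothing is read from these counts.

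Within every group, the replicates of the ADE genes differed by an amount that tended to follow coding length. For ADE8, the shortest gene at 645 coding bases, the log2 ratio of replicate 2 to replicate 1 was 0.97, 0.96 and 0.73 for the wild type, the Dcp2 strain and the Ccr4/Pop2 strain. For ADE6, the longest at 4077 coding bases, it was -0.87, -0.79 and -0.57. ADE16 and ADE17, nearly equal at 1776 and 1779 coding bases, still differed. The ratio was -0.16, -0.29 and -0.40 for ADE16, and -0.80, -0.61 and -0.87 for ADE17. Across the 10 genes Spearman's coefficient between this ratio and coding length was -0.88, -0.903 and -0.927 in the same order of groups, and across 3948 genes with 20 or more reads throughout it was -0.564, -0.545 and -0.551. These are descriptions across genes of the same libraries. What the replicate number stands for is not stated in the labels.

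**Figure D4:**
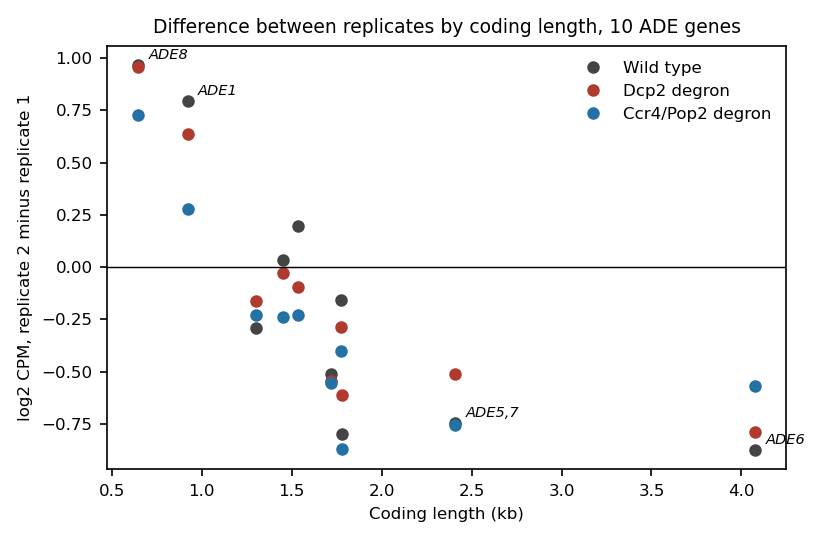
Log2 ratio of replicate 2 to replicate 1 in level (TMM-scaled CPM) against coding length in kb for the 10 ADE genes, 1 point per gene and group. The ratios lie between 0.73 and 0.97 for ADE8, the shortest gene, and between -0.87 and -0.57 for ADE6, the longest.

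Poly(A) tail length is the second readout of these libraries and was not used to choose the genes. Deadenylases shorten the tail, and decapping removes the 5′ cap. The median gene, among the 3949 with 20 or more reads throughout, had a tail of 38.4 and 42.9 nt in wild-type libraries, 31.45 and 38.8 nt in the Dcp2 strain, and 50.6 and 51.6 nt in the Ccr4/Pop2 strain. The median over the 10 ADE genes differed from that by -2.25 and -2.27 nt in wild-type libraries, by 1.28 and 2.0 nt in the Dcp2 strain, and by -5.55 and -3.26 nt in the Ccr4/Pop2 strain, so the members' median was above that of all genes in the Dcp2 strain only. Single genes did not all follow. ADE16 stood at -4.45 and -6.73 nt from the median gene in the Dcp2 libraries, and ADE13 at 2.24 and 1.57 nt in the wild-type libraries.

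In the Dcp2 strain the log2 differences in tail length of the ADE genes from the wild type had a median of -0.07, beside -0.22 over all genes. limma called 0 of the 10 and 0 of 3949 genes (0.0%), although 793 genes had an unadjusted p-value under 0.05. ADE8 and ADE16 were below both wild-type libraries, where 44.9% of all genes were. ADE6 was above both, where 1.67% of all genes were, at 39.03 and 39.63 nt against 35.68 and 39.0 nt, a log2 difference of 0.08 (SE 0.122; limma adjusted p 0.699). That order rests on 39.03 nt against 39.0 nt. ADE17 shows how wide the replicates can be: its tail was 36.6 and 42.3 nt in wild-type libraries and 30.2 and 45.8 nt in the Dcp2 strain, from 55 and 44 reads there.

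In the Ccr4/Pop2 strain the tails of 9 of the 10 genes were above both wild-type libraries, as were those of 90.0% of all genes. The members' median log2 difference was 0.28, beside 0.30 over all genes. limma again called 0 of the 10 and 0 of 3949 genes (0.0%), with 1136 genes, ADE8 and ADE1 among them, at an unadjusted p-value under 0.05. When only the 4 libraries of both groups were fitted, 2336 genes passed, 4 of them members, while the main model pools the spread over all 6 libraries, of which the Dcp2 pair differed most in median tail. ADE1 measured 36.5 and 39.5 nt in the wild type and 47.9 and 51.5 nt in the degron, a log2 difference of 0.39 (SE 0.139; limma adjusted p 0.165). ADE4 tails went from 35.3 and 37.0 nt in wild-type libraries to 45.2 and 48.9 nt in the degron, a difference of 0.38 (SE 0.170; limma adjusted p 0.178). ADE5,7 was the gene that overlapped, at 37.9 and 41.6 nt in the wild type and 43.3 and 41.3 nt in the degron, a log2 difference of 0.09 (SE 0.123; limma adjusted p 0.524).

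Tails differed most between the degrons. Of all 3949 genes 69.6% were called longer in the Ccr4/Pop2 strain than in the Dcp2 strain by limma, and 0.0253% shorter, and 3 of the 10 ADE genes were called longer. ADE16 measured 27.0 and 32.0 nt in the Dcp2 strain and 42.4 and 44.9 nt in the Ccr4/Pop2 strain, a log2 difference of 0.57 (SE 0.157; limma adjusted p 0.0224). For ADE8 the tails were 32.6 and 32.8 nt in the Dcp2 strain and 45.8 and 45.4 nt in the Ccr4/Pop2 strain, a difference of 0.48 (SE 0.126; limma adjusted p 0.0197). For ADE1 they were 32.9 and 39.3 nt in the Dcp2 strain and 47.9 and 51.5 nt in the Ccr4/Pop2 strain, a difference of 0.47 (SE 0.139; limma adjusted p 0.0264). ADE16 and ADE8 had both Dcp2 libraries below and both Ccr4/Pop2 libraries above the wild type, as 40.5% of all genes did. These calls rest on both Ccr4/Pop2 libraries, since limma called 0 genes without either of them.
Of the 7 genes that did not pass, ADE6 had the smallest difference, at 39.0 and 39.6 nt against 41.2 and 44.8 nt (log2 0.13, SE 0.122; limma adjusted p 0.340). ADE5,7 followed at 0.15 (SE 0.123; limma adjusted p 0.271). ADE17 was the gene whose tails overlapped between the degrons, while the other 9 were longer in both Ccr4/Pop2 libraries, as were 95.7% of all genes. The members' median was 0.36, beside 0.53 over all genes. ADE2 and ADE12 measured 0.45 and 0.34, ADE13 measured 0.27 and ADE4 measured 0.39.

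**Figure D5:**
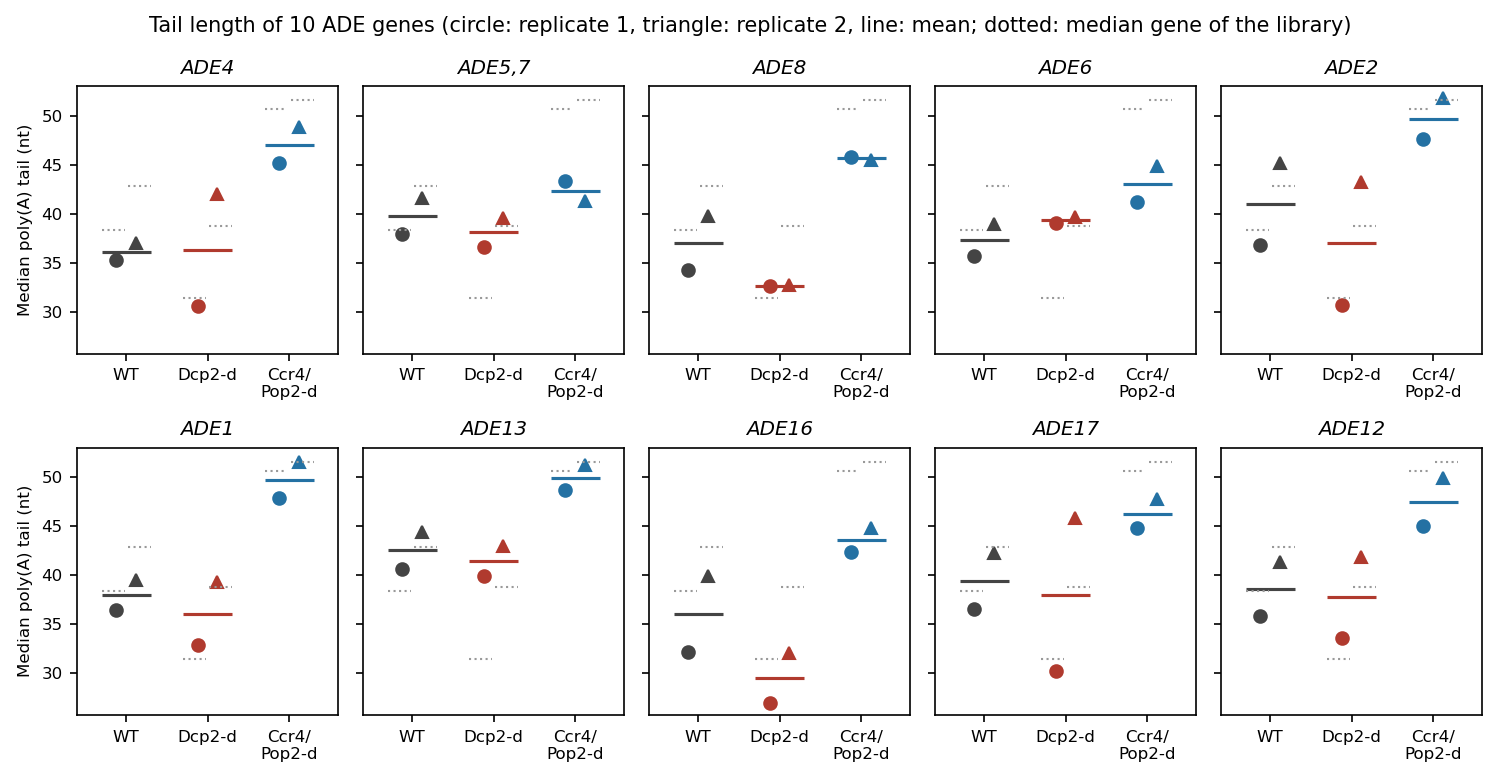
Median poly(A) tail length in nt of each ADE gene in each library (circle, replicate 1; triangle, replicate 2; solid line, group mean), on a shared axis that does not start at 0; dotted lines mark the median gene of each library among genes with 20 or more reads throughout. Tails in the Ccr4/Pop2 strain lie above both wild-type points for 9 of the 10 genes, ADE5,7 being the exception.

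Between the degrons, the largest differences in level and in tail belonged to different genes. ADE16 had the largest tail difference between the degrons and a level that overlapped in all groups. With TMM scaling ADE17 had the largest level difference, and its tails overlapped between the degrons. With total-count scaling ADE8 had the largest level difference, at -0.89, and its tails differed too, at a log2 of 0.48. Both readouts come from the same reads, and no test of their relation was made.

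The genes whose level over the 6 libraries was most like the mean of the ADE genes were RNR4, a small subunit of ribonucleotide reductase, at a Pearson coefficient of 0.997, HXT1, a hexose transporter, at 0.995, SUB2, a helicase of messenger RNA export, at 0.993, WRS1, tryptophanyl-tRNA synthetase, at 0.993, and YDR524C-B at 0.9903. Among 3939 genes compared, 133 had a coefficient over 0.9, which is 3.38%. RNR4 measured 279 and 233 CPM in wild-type libraries, 130 and 119 in the Dcp2 strain, and 198 and 149 in the Ccr4/Pop2 strain.

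Other genes of nucleotide metabolism were taken from 6 lists of 39 genes, 38 of which were analysed. The lists were also chosen with earlier results of these data known, so the counts and p-values here are a description. They are not independent support for the levels of the ADE genes. Without the block, edgeR called 0 of the 38 in either contrast with the wild type. Of all genes, 579 in the Dcp2 strain and 392 in the Ccr4/Pop2 strain had an unadjusted p-value under 0.05 in that fit, and DESeq2 called 53 and 33. With the block edgeR called 4 higher and 21 lower in the Dcp2 strain, beside 17.6% and 19.7% of all genes. In the Ccr4/Pop2 strain it called 4 higher and 12 lower, beside 14.2% and 12.8%. Total-count scaling with the block gave 8 higher and 10 lower in the Dcp2 strain, beside 50.7% and 6.11% of all genes, and 5 higher and 8 lower in the Ccr4/Pop2 strain, beside 20.2% and 8.82%. The log2 changes named here passed in edgeR with the block, at adjusted p-values from 3.86e-07 to 0.0495, and none passed without it, where adjusted p-values lay between 0.305 and 0.964. With total-count scaling and the block, ADE3, IMD3, IMD4, PRS4, PRS1, GCN4 and URA2 no longer passed in the Dcp2 strain, and IMD4, PRS1, ADO1 and GUK1 no longer passed in the Ccr4/Pop2 strain, while the other named changes passed in the same direction.
Of 9 genes of one-carbon supply and of the histidine pathway regulated with the ADE genes, 2 were higher and 5 lower in the Dcp2 strain, and 1 rose and 3 fell in the Ccr4/Pop2 strain. HIS4, a histidine pathway enzyme, fell by 1.03 and 1.12 in the Dcp2 and Ccr4/Pop2 strains. SHM2, the cytosolic serine hydroxymethyltransferase that feeds one-carbon units to purines, fell by 1.12 in the Dcp2 strain, where ADE3, a one-carbon enzyme, fell by 0.84 and GCV2 of the glycine cleavage system rose by 0.87. GCV2 was low, at 13.9 and 8.05 CPM in wild-type libraries and 30.9 and 9.60 in the Dcp2 strain. Its libraries overlapped, and its adjusted p-value in edgeR with the block was 0.0398. In the Ccr4/Pop2 strain HIS1 fell by 0.62, MTD1 fell by 0.53 and GCV1 rose by 0.48.
Of 4 genes on the way from IMP to GMP, 3 were lower in the Dcp2 strain and 2 in the Ccr4/Pop2 strain. GUA1, GMP synthase, fell by 1.27 and by 0.65. IMD3 fell by 0.78 in the Dcp2 strain, and IMD4 fell by 0.30 and 0.35, but the IMD genes are close copies whose reads the authors' counting could split. Of 5 phosphoribosyl pyrophosphate synthetase genes, PRS4 fell by 0.56 in the Dcp2 strain and PRS1 fell by 0.39 and 0.35 in the Dcp2 and Ccr4/Pop2 strains. With total-count scaling and the block these were -0.042 for PRS4, and 0.13 and -0.23 for PRS1.
Of 10 genes of purine salvage and interconversion, 1 was higher and 7 lower in the Dcp2 strain, and 1 rose and 3 fell in the Ccr4/Pop2 strain. ADK1, adenylate kinase, fell by 1.33 and 0.78, GUK1, guanylate kinase, fell by 1.03 and 0.39, and ADO1, adenosine kinase, fell by 0.87 and 0.43. FCY2, the purine-cytosine permease, fell by 0.87 in the Dcp2 strain, and APT1, adenine phosphoribosyltransferase, rose by 0.36 in the Ccr4/Pop2 strain. Of the regulators, GCN4 fell by 0.34 and 0.69, the first of which became 0.18 with total-count scaling and the block, while BAS1 passed in neither contrast. This does not show that BAS1 was unchanged. The median over GCN4 and BAS1 with the block was -0.46 in the Dcp2 strain and -0.59 in the Ccr4/Pop2 strain. With total-count scaling and the block it was 0.059 and -0.48.
The pyrimidine list served for comparison. Of its 8 genes, 1 was higher and 3 lower in the Dcp2 strain, and 2 rose and 2 fell in the Ccr4/Pop2 strain. In the Dcp2 strain URA10, the minor orotate phosphoribosyltransferase, rose by 1.07, its major partner URA5 fell by 0.91, URA7, a CTP synthase, fell by 0.96 and URA2, the entry enzyme, fell by 0.77. In the Ccr4/Pop2 strain URA6 fell by 0.60, URA5 fell by 0.56, URA1 rose by 0.53 and URA4 rose by 0.46.

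The upstream motif was also set beside the levels of genes outside the pathway. The 384 other genes whose window held TGACTC had a median log2 difference of -0.03 in the Dcp2 strain and -0.06 in the Ccr4/Pop2 strain, beside -0.02 and -0.01 over all genes. Of the 8 ADE genes with the motif, 7 lay below the wild type in both Dcp2 libraries after TMM scaling, as 20.4% of all genes did. ADE8 was the exception, and the median log2 difference of the 8 was -1.06. Of the 2 without it, ADE4 lay below in both libraries, at -0.42, and ADE16 overlapped, at -0.0076. The log2 difference was negative for 7 of the 8 genes with the motif under either scaling. Without the motif it was negative for 2 of the 2 genes with TMM scaling and for 0 of the 2 with total-count scaling. The share of all genes with a negative difference was not counted, and their median was -0.02 with TMM scaling and 0.51 with total-count scaling. With total-count scaling both Dcp2 libraries lay below both wild-type libraries for 2 of the 8 and 0 of the 2, beside 2.08% of all genes. In the Ccr4/Pop2 strain the median log2 difference after TMM scaling was -0.68 with the motif and 0.11 without it. Total-count scaling gave -0.57 and 0.25. With TMM scaling both Ccr4/Pop2 libraries lay below both wild-type libraries for 4 of the 8 and 0 of the 2, beside 15.6% of all genes. The ADE genes were chosen with the Dcp2 contrast in view, and the counts are a description. A relation between motif and level was not tested.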

How the data were processed

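Groups came from the sample titles. Per the submitters' processing notes, minimap2, SAMtools 1.9 and the sacCer3 build were used. The basecaller, annotation and rule for assigning reads to genes are not given in the sources used here. The authors deposited 1 table with a read count per gene and library, not normalized, and beside it a median, taken here as the gene's median poly(A) tail length (an unscaled signal in nt). Columns without a number were taken as replicate 1 by elimination, and 0 per-sample columns were left without a sample.

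Levels were tested with edgeR 4.0.16 in R 4.3.3 (TMM, filterByExpr, glmQLFit, glmQLFTest) and tails with limma 3.58.1 on log2 nt for genes with 20 or more reads throughout, over all genes, all 6 libraries and Benjamini-Hochberg adjustment at 0.05. The log2 values were computed from the deposited counts and medians. The SE of a level difference was derived from the edgeR test, as the absolute log2 difference divided by the square root of its F statistic. DESeq2 1.42.0 was an alternative, with those in the closing section. Scripts were tested on simulated data. With 2 libraries against 2, an exact permutation test cannot go below 0.333, so none is given.

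The pairing comes from the replicate numbers, and the labels do not say what they stand for. Deviations from group means correlated between same-numbered libraries at 0.804, 0.823 and 0.794 for levels, which were taken as paired, and at 0.257, 0.148 and 0.0548 for tails, which were not.

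The members, the lists and the tests were chosen with earlier results of these data known. All members are named. Of each related list, the genes called with the block are named, at most the 4 of largest change per contrast, and the 5 genes most like the members' mean level. Coding length, windows and identity were computed from the RefSeq R64 assembly.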

Additional observations from a re-analysis of the deposited data

Results flagged for a closer look

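For 3 values of the ADE genes both Dcp2 libraries lay below, and both Ccr4/Pop2 libraries above, both wild-type libraries. The first is the level of ADE4, with a log2 difference of 0.72 between the degrons (Ccr4/Pop2 minus Dcp2). Of all genes, 2.34% had levels in this order. The others are the tails of ADE8, at a log2 difference of 0.48, and of ADE16, at 0.57, an order that 40.5% of all genes with 20 or more reads throughout had for tails. The order was not tested as such, although limma called the tail differences between the degrons for both genes. With total-count scaling the level of ADE4 in the Dcp2 strain stood 0.12 above the wild type on the log2 scale, so its order depended on the scaling.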

How the results depend on the processing

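The replicate block decided the calls of levels. Against 0, 4 and 0 genes called without it (Dcp2 strain and Ccr4/Pop2 strain against the wild type, and the degrons against each other), edgeR with the replicate block called 1834, 1327 and 2311. With the block and counts of Ccr4/Pop2 replicate 1 divided by 4 it called 1947, 1234 and 2255, with the block and total-count scaling 2790, 1424 and 2489, and DESeq2 without the block called 53, 33 and 155. Total-count scaling alone gave 5 and 0 genes for the contrasts with the wild type, and at least 20 reads in every library gave 1 and 0. Total-count scaling moved the members' median log2 level in the Dcp2 strain to -0.43 (-0.41 with the block) and between the degrons to 0.038 (0.018 with the block). It moved ADE16 in the Dcp2 strain from -0.0076 to 0.53 (0.51 with the block). In the Ccr4/Pop2 strain it turned ADE16 to 0.054 (0.040 with the block). TMM scaling moved the summed level to 1831 CPM in wild-type replicate 2 and 1072 CPM in Dcp2 replicate 1. For tails, the block kept 0 calls in both contrasts with the wild type and called 7 members in place of 3, and 3313 genes in place of 2749, between the degrons.

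Centring each library on its median tail removed the shift common to all genes. It gave 1 call in the Dcp2 strain, where tails in nt gave 2, and 0 between the degrons, where at least 50 reads gave 1739. Fitting only the groups compared gave 2336 calls in the Ccr4/Pop2 strain. The members' median tail difference became 0.15, -0.049 and -0.19 in the same order of contrasts. In the Dcp2 strain against the wild type, centring reversed ADE4 to 0.20, ADE5,7 to 0.16, ADE8 to 0.041, ADE2 to 0.055, ADE1 to 0.14, ADE13 to 0.18, ADE17 to 0.14 and ADE12 to 0.18. In the Ccr4/Pop2 strain against the wild type it reversed ADE5,7 to -0.24, ADE8 to -0.027, ADE6 to -0.13, ADE2 to -0.049, ADE13 to -0.10, ADE16 to -0.050, ADE17 to -0.10 and ADE12 to -0.032. Between the degrons it reversed ADE4 to -0.16, ADE5,7 to -0.40, ADE8 to -0.068, ADE6 to -0.42, ADE2 to -0.10, ADE1 to -0.083, ADE13 to -0.28, ADE17 to -0.24 and ADE12 to -0.21.

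Leaving out 1 library at a time gave 0 to 0 calls of level in the Ccr4/Pop2 strain and 0 to 16 between the degrons, and members' medians from -1.02 to -0.71, from -0.75 to -0.41 and from 0.25 to 0.64. For tails it gave 0 to 2080 calls in the Dcp2 strain (2080 without its replicate 2), 0 to 2342 in the Ccr4/Pop2 strain (without either Dcp2 library), and 0 to 3683 between the degrons, with medians there from 0.19 to 0.54. Single genes whose sign turned ranged as follows. Levels in the Dcp2 strain ran from -0.46 to 0.65 for ADE8 and -0.16 to 0.13 for ADE16. Between the degrons they ran from -0.11 to 0.63 for ADE5,7, -0.95 to 0.034 for ADE8, -0.26 to 0.37 for ADE1 and -0.29 to 0.097 for ADE16. Levels in the Ccr4/Pop2 strain ran from -0.30 to 0.082 for ADE16, -0.24 to 0.33 for ADE2 and -0.86 to 0.082 for ADE8. Tails in the Dcp2 strain ran from -0.19 to 0.12 for ADE12, -0.10 to 0.028 for ADE13, -0.38 to 0.22 for ADE17, -0.21 to 0.051 for ADE1, -0.41 to 0.084 for ADE2, -0.24 to 0.22 for ADE4 and -0.13 to 0.0065 for ADE5,7. A group left with 1 library was assumed to vary like the others. The cause of these shifts was not tested. Depth limits ADE17 most, with 55 and 44 reads in the Dcp2 strain.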
